A study of Homo sapiens with 3 samples.

Results

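The prostaglandin genes described here are 10 genes of synthesis, breakdown and receptors, taken by symbol from the array annotation out of 18417 genes measured. They were listed with the levels of these arrays already known, so the values below are a description and no test was made of them. All 10 have exactly 1 probe set of their own, so none was lost to a filter. Total RNA from 3 cultures was hybridized to the Affymetrix Human Gene 1.0 ST array, 1 array for each culture. These were LoVo-R8 cells cultured with 8 μM irinotecan, LoVo-R8 cells kept free of the drug, and parental LoVo cells. LoVo is an established cell line of human colorectal cancer. LoVo-R8 is 1 resistant line selected from it by stepwise doses of irinotecan, a topoisomerase I inhibitor, between 0.1 and 8 μM. The labels of all 3 arrays carry the same treatment note, which puts irinotecan 24 h ahead of RNA isolation. It does not say whether parental cells were dosed. With 1 array per culture there is no replicate error, and no p-value is given. The small number of arrays limits the precision. In these bulk cultures, fewer cells that express a gene and less RNA per cell cannot be told apart.

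Prostaglandins are made when a phospholipase A2 releases arachidonic acid from membrane phospholipids and a cyclooxygenase turns it into PGH2. Terminal synthases then form the single prostaglandins, of which PGE2 is the main one in the colon, and receptors of the EP class read it at the cell surface. PGE2 is taken up again and inactivated by a dehydrogenase. In colorectal tumours, high cyclooxygenase and low dehydrogenase are well known, and aspirin acts on the cyclooxygenase step.

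Relative to parental LoVo, the inducible cyclooxygenase gene PTGS2 and the dehydrogenase gene HPGD were at least 2-fold lower on both LoVo-R8 arrays, and the cytosolic phospholipase gene PLA2G4A was at least 2-fold higher on both. PTGS2 was at 13.9% of its parental level with irinotecan and at 15.5% without it. HPGD was at 29.3% and 25.5%, and PLA2G4A was 4.30-fold and 2.52-fold of its parental level. The constitutive cyclooxygenase gene, the PGE2 synthase genes and the receptor genes were all within 2-fold of their parental levels, the largest log2 difference being 0.48 (PTGER4). Thus 3 of the 10 genes were past 2-fold in LoVo-R8 with irinotecan, where 4.56% of all genes were, and 3 of the 10 in LoVo-R8 without irinotecan, where 4.42% of all genes were. Because these differences were known when the genes were listed, nothing is read from those counts. At 3-fold, PTGS2 and HPGD were called on both arrays and PLA2G4A with irinotecan only, where 1.56% and 1.46% of all genes were. The LoVo-R8 arrays are compared with the same parental array.

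PTGS2 and PLA2G4A lie next to each other among the measured genes of chromosome 1, on opposite strands and transcribed away from each other, and differed from parental LoVo in opposite directions. For this reason the 250 bases before each start site are printed, from RefSeq on GRCh38.p14, 5′ to 3′ on the strand of the gene. Capitals mark matches on either strand to the TATA box letters TATAAA. They also mark the core of the cAMP response element, TGACG, likewise on either strand. The PTGS2 window is chr1:186680424-186680673 on the minus strand and the PLA2G4A window is chr1:186828699-186828948 on the plus strand. By these coordinates the windows are separate and do not overlap.
PTGS2: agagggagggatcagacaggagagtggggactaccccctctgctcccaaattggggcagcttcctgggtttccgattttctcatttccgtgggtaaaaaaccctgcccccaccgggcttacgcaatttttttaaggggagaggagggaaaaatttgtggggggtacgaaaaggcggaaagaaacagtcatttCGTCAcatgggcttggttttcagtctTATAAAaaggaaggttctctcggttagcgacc
PLA2G4A: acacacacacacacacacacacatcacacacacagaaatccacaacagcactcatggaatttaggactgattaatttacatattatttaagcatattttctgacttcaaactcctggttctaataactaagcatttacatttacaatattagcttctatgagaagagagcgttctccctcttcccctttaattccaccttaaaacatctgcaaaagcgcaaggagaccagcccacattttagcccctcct
The PTGS2 window holds TATAAA at bases -32 to -27 and TGACG, on the opposite strand, at bases -58 to -54, counted back from the first base of the gene. The PLA2G4A window holds neither. Among 35093 windows of this length, 10.7% hold TATAAA and 21.2% hold TGACG on either strand. The CpG count was 9 in the PTGS2 window and 2 in the PLA2G4A window, against a median of 11 over all windows, and the GC content was 50.4% and 38.8%, against a median of 58.0%. Of the 10 genes, 9 have at least 1 window in the RefSeq table, with 13 windows in all. Counted by gene, 4 of these 9 hold TGACG and 2 hold TATAAA, whereas the shares above are per window. The other gene with TATAAA is PTGS1, at bases -208 to -203 on the opposite strand. These matches describe the letters only.

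PLA2G4A encodes the cytosolic phospholipase A2 that releases arachidonic acid. Its log2 level was 8.93 in LoVo-R8 with irinotecan, 8.16 in LoVo-R8 without irinotecan and 6.83 in parental LoVo. Both LoVo-R8 arrays were above the parental array, and the array with irinotecan was the highest. The log2 difference from parental LoVo was 2.10 with irinotecan, the 62nd highest of 18417 genes, and 1.34 without it, the 147th highest. PLA2G4A was also the gene of the 10 that differed most between the LoVo-R8 arrays. With irinotecan it was 0.77 higher than without, or 1.70-fold, the 241st highest of all genes in that comparison, and was past 1.5-fold, where 3.95% of all genes were. The absolute difference between these arrays was below 0.53 for 95% of genes and below 0.90 for 99% of genes. The parental level lay just below the median of its array (6.94), and both LoVo-R8 levels lay above theirs.

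PTGS2 encodes cyclooxygenase-2, the form induced by growth factors and cytokines. Its log2 level was 6.90 in LoVo-R8 with irinotecan, 7.06 in LoVo-R8 without irinotecan and 9.75 in parental LoVo. The parental array was the high one, and the LoVo-R8 arrays lay close to the median of their arrays (6.94 with and 6.95 without irinotecan). The log2 difference from parental LoVo was -2.85 with irinotecan, the 32nd lowest of all genes, and -2.69 without it, the 54th lowest. Between the LoVo-R8 arrays it was -0.16. PTGS1, the constitutively expressed cyclooxygenase-1, had levels of 6.16, 6.23 and 6.29 in the same order of arrays, with differences of -0.13 and -0.06 from parental LoVo. All its levels were below the array median.

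The 3 genes of PGE2 synthases were near their parental levels. PTGES, the membrane-bound synthase that is usually induced together with cyclooxygenase-2, had a log2 level of 6.80 in LoVo-R8 with irinotecan, 6.62 in LoVo-R8 without irinotecan and 6.73 in parental LoVo. Its differences from parental LoVo were 0.07 and -0.11, so the large PTGS2 difference had no counterpart of that size in PTGES. All PTGES levels were below the array median, where a fall of that size has less room to show. PTGES2, a second membrane-associated synthase, had levels of 8.14, 8.08 and 8.22. PTGES3, a cytosolic synthase that is also the HSP90 co-chaperone p23, had levels of 11.78, 11.69 and 11.64. RefSeq lists 5 pseudogenes of PTGES3 that may share probe sequence with it, so its value is uncertain. The widest gap between any pair of arrays among these genes was 0.18, for PTGES.

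HPGD encodes the NAD-dependent dehydrogenase that starts the inactivation of PGE2. Its log2 level was 9.72 in LoVo-R8 with irinotecan, 9.52 in LoVo-R8 without irinotecan and 11.49 in parental LoVo. The parental array was the high one, and the LoVo-R8 arrays were 0.20 apart. The log2 difference from parental LoVo was -1.77 with irinotecan, the 115th lowest of all genes, and -1.97 without it, the 110th lowest. All HPGD levels were above the array median. PTGS2 and HPGD, the genes for a step of synthesis and for breakdown, were therefore lower on the same arrays. RefSeq gives HPGD 2 start sites, with 29 and 4 CpGs in the windows before them.

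**Figure D1:**
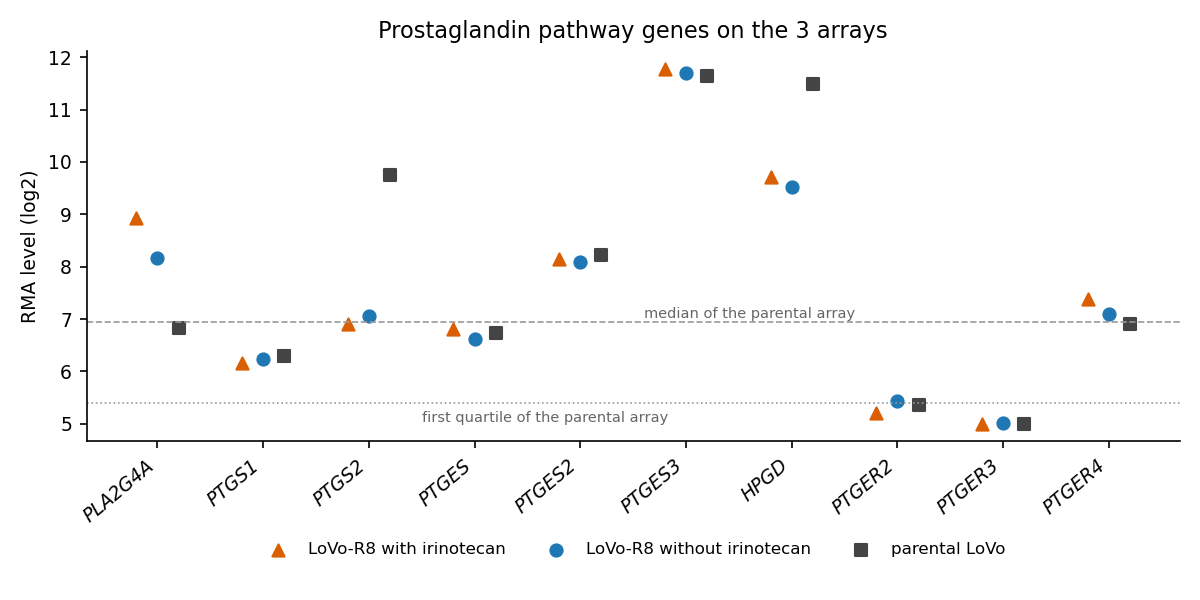
RMA log2 level (vertical axis) of each of the 10 genes (horizontal axis) in LoVo-R8 with irinotecan (triangles), LoVo-R8 without irinotecan (circles) and parental LoVo (squares), 1 array each, with lines at the median (6.94) and the first quartile (5.39) of the parental array. PLA2G4A lies above its parental level of 6.83 on both LoVo-R8 arrays, and PTGS2 and HPGD lie below their parental levels of 9.75 and 11.49.

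The 3 receptor genes were all within 2-fold of their parental levels. PTGER4 encodes EP4, which raises cAMP. It had log2 levels of 7.38 in LoVo-R8 with irinotecan, 7.10 in LoVo-R8 without irinotecan and 6.90 in parental LoVo. Its differences of 0.48 and 0.20 from parental LoVo were the largest among the 7 genes within 2-fold, and the difference between the LoVo-R8 arrays was 0.28. PTGER2, which encodes EP2, another receptor that raises cAMP, had levels of 5.22, 5.44 and 5.37. Its level was below the first quartile of the array with irinotecan (5.39) and of the parental array (5.39). PTGER3 encodes EP3, which mainly lowers cAMP, and had levels of 5.00, 5.01 and 5.00, below the first quartile on all arrays. Such levels are low on the array, and limit what a difference in PTGER2 or PTGER3 can show.

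By their labels, the pair of LoVo-R8 arrays differ in the drug. They also differ in culture and array, and these cannot be told apart from the drug. Between LoVo-R8 with and LoVo-R8 without irinotecan, 0 of the 10 genes were 2-fold apart, where 0.641% of all genes were. The differences were between -0.23 (PTGER2) and 0.77 (PLA2G4A), with a median of 0.08 over the 10 genes and 0.00 over all genes. PTGS2, with its levels of 6.90 and 7.06, and HPGD, with 9.72 and 9.52, were -0.16 and 0.20 apart on this pair of arrays. Against parental LoVo, the medians of the 10 genes were -0.04 with irinotecan and -0.02 without it, and 0.00 over all genes in both cases.

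**Figure D2:**
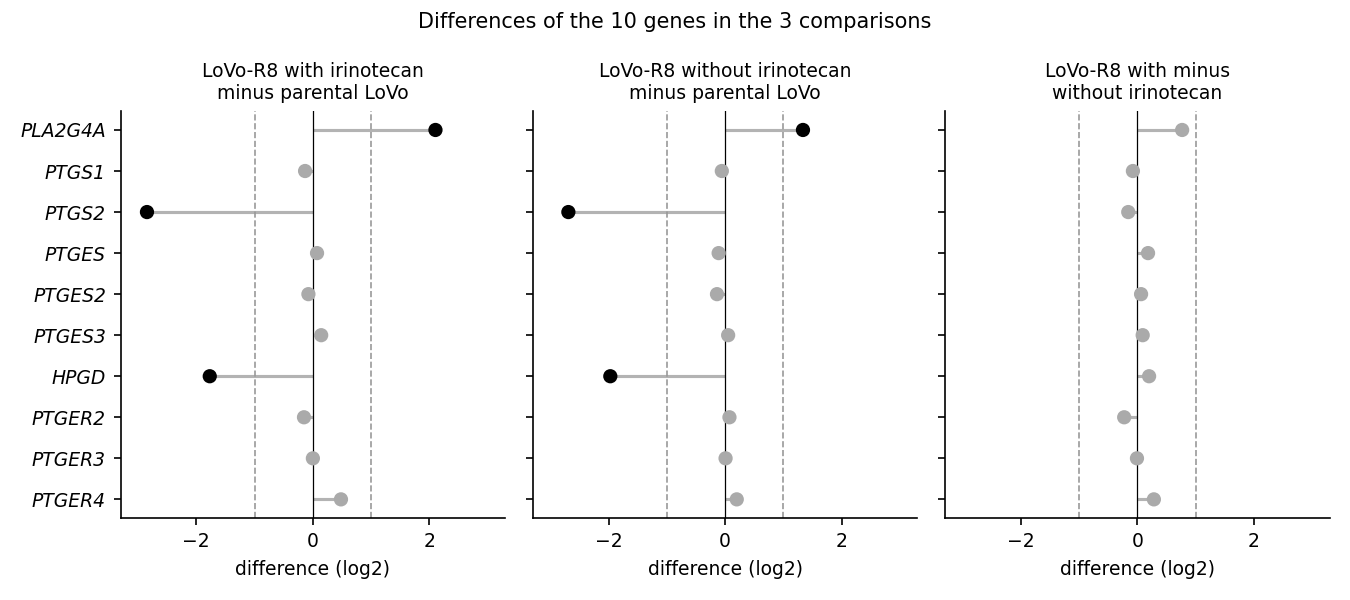
Log2 difference (horizontal axis) of each of the 10 genes in LoVo-R8 with irinotecan minus parental LoVo (left), LoVo-R8 without irinotecan minus parental LoVo (middle) and LoVo-R8 with minus without irinotecan (right), with black points at or past 2-fold and dashed lines at 2-fold. PTGS2 (-2.85 and -2.69), HPGD (-1.77 and -1.97) and PLA2G4A (2.10 and 1.34) are past 2-fold from parental LoVo, and 0 genes are past it in the right panel.

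Next, the measured genes beside the 3 genes past 2-fold were examined. On chromosome 1 the gene order is TPR, ODR4, PDC, PTGS2, PLA2G4A, BRINP3, RGS18 and RGS21. Only 1 annotated gene lies between PTGS2 and PLA2G4A, the noncoding RNA gene PACERR, and it was not analysed here. TPR had log2 differences from parental LoVo of -0.20 with and -0.28 without irinotecan, ODR4 -0.71 and -0.35, and PDC -0.14 and -0.20. PDC had levels below the first quartile on all arrays. On the far side of PLA2G4A, BRINP3, RGS18 and RGS21 were within 0.01 of their parental levels, and all 3 had levels below the first quartile. At such levels a fall has little room to show. Thus 0 of the other 6 genes of this stretch were 2-fold apart, where 4.56% of all genes were with irinotecan and 4.42% without it. Of the 6 neighbours of HPGD on chromosome 4, 0 were 2-fold apart on either LoVo-R8 array, and their differences were between -0.33 (FBXO8) and 0.25 (CEP44). HAND2, GLRA3, ADAM29 and GPM6A, the other neighbours, were between -0.03 and 0.16. GLRA3 and ADAM29 were below the first quartile on all arrays, so a fall there could hardly show. PTGDR, which encodes a receptor of PGD2, lies beside PTGER2 on chromosome 14, and had differences of 0.10 and 0.37. Its level was below the first quartile in LoVo-R8 with irinotecan and in parental LoVo, which limits what these differences can show. The remaining neighbours of PTGER2 (RTRAF, NID2, TXNDC16, GPR137C and ERO1A) had differences between -0.74 and 0.36.

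**Figure D3:**
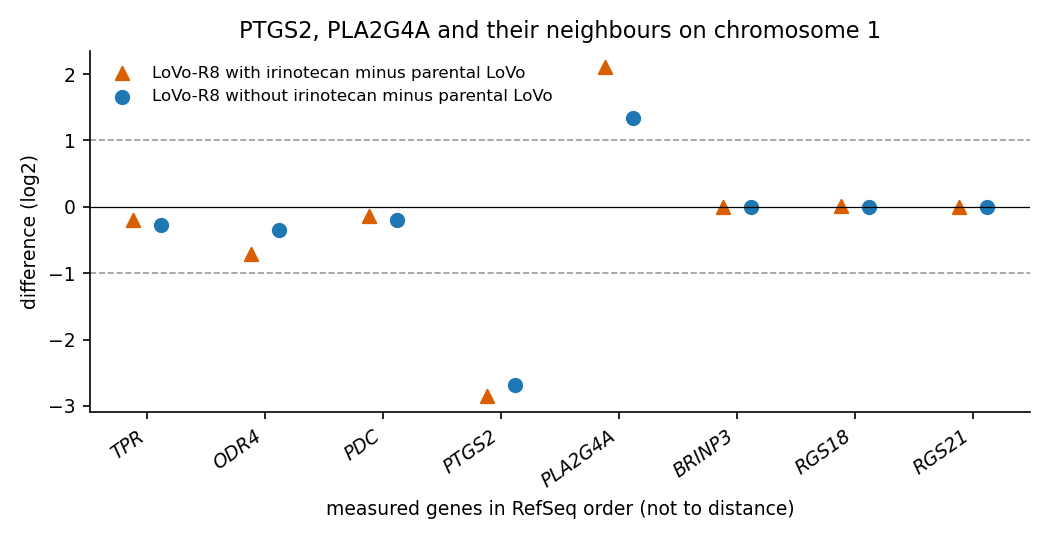
Log2 difference from parental LoVo (vertical axis) of PTGS2, PLA2G4A and the measured genes beside them on chromosome 1, in gene order, for LoVo-R8 with irinotecan (triangles) and LoVo-R8 without irinotecan (circles). PTGS2 (-2.85 and -2.69) and PLA2G4A (2.10 and 1.34) lie past the 2-fold lines in opposite directions, and the other 6 genes lie between -0.71 and 0.01.

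The other genes of the pathway were taken from lists of textbook members, chosen with earlier results of these data known. Nothing is therefore read from the counts and medians of these lists. Of 8 other measured prostanoid synthases and reductases, 0 were 2-fold apart in any comparison. Over all genes, 4.56% were 2-fold from parental LoVo with irinotecan, 4.42% without it, and 0.641% differed so between the LoVo-R8 arrays. The carbonyl reductase gene CBR1 had a log2 difference from parental LoVo of 0.08 with irinotecan and -0.50 without it, and the PGD2 synthase gene HPGDS 0.36 and 0.00, from levels below the first quartile. Of 6 other prostanoid receptors 0 were 2-fold apart, and the prostacyclin receptor gene PTGIR had 0.09 and 0.29. The list of transport and reduction held the genes that handle PGE2 after its release. SLCO2A1, the prostaglandin uptake transporter that delivers PGE2 to the dehydrogenase, had levels of 7.75 in LoVo-R8 with irinotecan, 7.45 in LoVo-R8 without irinotecan and 8.91 in parental LoVo. It was at 44.8% of its parental level with and 36.3% without irinotecan. The SLCO2A1 differences of -1.16 and -1.46 were in the same direction as those of HPGD. SLCO3A1, a related organic anion transporter, had -1.63 and -1.55. ABCC4, an efflux pump that also exports prostaglandins, had -0.49 and -1.04, the second of which was within 2-fold under loess correction (-0.96). PTGR2, a reductase that acts on PGE2 after the dehydrogenase, chosen after its values were seen, lay on the other side, at 0.89 and 0.75. Thus 2 of the 6 measured genes of this list were 2-fold lower with irinotecan, where 2.3% of all genes were, and 3 without it, where 2.78% of all genes were, and 0 were 2-fold higher. The list medians were -0.28 and -0.56, against 0.00 over all genes.

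Among 16 other phospholipases A2, the secreted enzyme gene PLA2G2A was the only one 2-fold apart. Over all genes, 4.56% were 2-fold from parental LoVo with irinotecan and 4.42% without it. The log2 level of PLA2G2A was 6.80 in LoVo-R8 with irinotecan, 6.67 in LoVo-R8 without irinotecan and 9.08 in parental LoVo. PLA2G2A, with differences of -2.28 and -2.41, was lower on the arrays where PLA2G4A was higher. The list medians were -0.01 and 0.03. Among 10 genes of arachidonate supply, LPCAT3, which puts arachidonate back into phospholipids, was 2-fold higher on both arrays (1.34 and 1.31). Over all genes, 2.25% were 2-fold higher with irinotecan and 1.64% without it. FADS1 and FADS2, the desaturase genes of arachidonate synthesis, chosen after their values were seen, had -0.70 and -0.44, and -0.90 and -0.59. The medians of this list were 0.03 and -0.02.

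The other arm of arachidonate metabolism leads to leukotrienes. ALOX5, the lipoxygenase gene at its head, had log2 levels of 7.33 in LoVo-R8 with irinotecan, 7.06 in LoVo-R8 without irinotecan and 9.65 in parental LoVo. The parental array was the high one, as for PTGS2, and the differences were -2.32 and -2.59. Of 13 measured genes of this arm, ALOX5 was the only one 2-fold apart from parental LoVo, and the list median was 0.00 on both arrays. Over all genes, 4.56% were 2-fold apart with irinotecan and 4.42% without it. MGST3, a microsomal glutathione transferase, had levels of 11.22, 10.19 and 10.37, and was 1.03 higher with than without irinotecan, but within 2-fold under loess correction (0.997). Over the 86 measured genes of all 8 lists, 1 was 2-fold higher and 6 lower in LoVo-R8 with irinotecan, where 2.25% and 2.3% of all genes were. In LoVo-R8 without irinotecan 1 was higher and 7 lower, where 1.64% and 2.78% of all genes were.

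**Figure D4:**
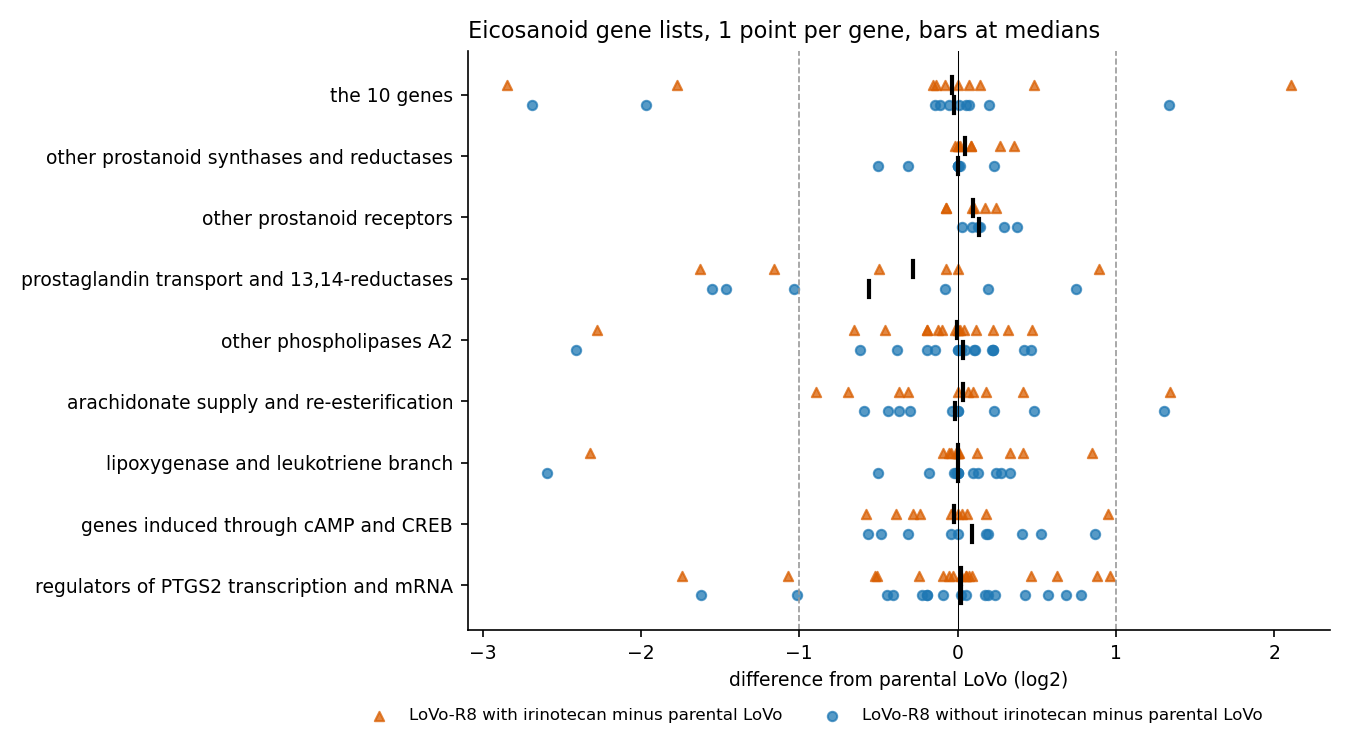
Log2 difference from parental LoVo (horizontal axis) of the 10 genes and of the measured genes of 8 further lists, in LoVo-R8 with irinotecan (triangles) and LoVo-R8 without irinotecan (circles), with a black bar for each median and 2-fold marked by dashed lines. The medians of the 10 genes lie at -0.04 and -0.02, and those of prostaglandin transport and reduction, the lowest list, at -0.28 and -0.56.

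The genes most like PTGS2 and HPGD over the 3 arrays were found by the Euclidean distance between their pairs of log2 differences from parental LoVo, among 11558 genes at or above the median of at least 1 array. Nearest to PTGS2 were CATSPERB (distance 0.21), SLC44A4 (0.22), RASGRP1 (0.27), GRHL2 (0.29) and ANKRD19P (0.29). Of these, CATSPERB, RASGRP1, GRHL2 and ANKRD19P passed the median filter through the parental array only. CATSPERB was below the first quartile on both LoVo-R8 arrays. GRHL2, an epithelial transcription factor gene, had levels of 6.02 in LoVo-R8 with irinotecan, 5.77 in LoVo-R8 without irinotecan and 8.65 in parental LoVo. Nearest to HPGD were DNAJC3 (0.06), TBX18 (0.06), IGF2BP1 (0.10), SLC16A14 (0.12) and TLL1 (0.13). TBX18, IGF2BP1, SLC16A14 and TLL1 likewise passed the filter through the parental array only. DNAJC3, which encodes a co-chaperone of the endoplasmic reticulum, had levels of 8.37, 8.24 and 10.20. With 3 arrays this likeness covers 2 differences per gene and describes these arrays only.

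The labelled cell type was checked by its markers. Of 8 epithelial markers, 7 in LoVo-R8 with irinotecan, 6 in LoVo-R8 without irinotecan and 7 in parental LoVo were at or above the array median, among them EPCAM, KRT8, KRT18 and KRT19 on all arrays. The intestinal keratin gene KRT20 was below the median on all arrays. The E-cadherin gene CDH1 had log2 differences from parental LoVo of -2.26 with and -3.06 without irinotecan, and was the only 1 of the 8 epithelial markers at least 2-fold apart. The intestinal transcription factor gene CDX2 had 0.91 and 0.35, and the list medians were -0.28 and -0.42. EPCAM had -0.30 and -0.43, KRT8 -0.50 and -0.54, KRT18 -0.53 and -0.41, and KRT19 -0.18 and -0.26. KRT20 had -0.27 and -0.27, and VIL1 0.00 and -0.55. VIL1 was below the array median in LoVo-R8 without irinotecan only. CDH1 was lower on the arrays where PTGS2 and HPGD were lower, and its part in those results was not tested. Of 4 leukocyte and 3 endothelial markers measured, 0 were at or above the median on any array. Of 6 fibroblast markers, 1 was in LoVo-R8 with irinotecan, 2 in LoVo-R8 without irinotecan and 1 in parental LoVo, among them COL1A1 on all arrays. None of these 13 markers differed by more than 0.27 from parental LoVo.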

How the data were processed

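Total RNA of 3 cultures (300 ng each) was hybridized to Affymetrix Human Gene 1.0 ST arrays. The authors deposited log2 levels of 33297 probe sets, made from the scans by robust multichip average (RMA). For this step the processing notes of the submitters give Affymetrix Expression Console 1.1, and the study's methods give R and Bioconductor. With RMA on 3 arrays, ties are common, and 26.1% of probe sets were tied on at least 2 arrays. No value was missing and no detection filter had been applied.

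Cultures were assigned by their labels. Probe sets were named by the platform annotation, in which 19460 name 1 gene, 1754 name several and 12083 are unnamed here, and 19429 were matched to RefSeq (GRCh38.p14) by Entrez identifier. Each gene was read from its brightest probe set (mean over arrays) that names no other gene, which gave 18417 genes. Differences are subtractions of log2 levels, counted at 2-fold, the fold of the study's methods. No test was made, because each condition has 1 array.

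The 10 genes and the further lists were chosen with earlier results of these data known. Named are the 10 genes, every list gene at least 2-fold apart in a comparison or otherwise the 2 with the largest difference from parental LoVo, up to 3 measured neighbours on each side of PTGS2, PLA2G4A, HPGD and PTGER2, and the 5 nearest patterns to PTGS2 and HPGD. Genes named beyond this rule were chosen after their values were seen. List genes without a single-gene probe set were not analysed here. Promoter windows came from RefSeq. Alternatives were thresholds of 1.5-fold and 3-fold, median centring, loess (span 0.3, 3 iterations), repeated quantile normalization, the mean over probe sets, and dim filters at the 25th and 50th percentile. Calculations used Python 3.11.15, numpy 2.4.6, pandas 2.3.3, statsmodels 0.14.6 and matplotlib 3.10.9, and were checked on simulated data.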

Additional observations from a re-analysis of the deposited data

How the results depend on the processing

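PTGS2, HPGD and PLA2G4A kept their direction and their side of 2-fold against parental LoVo under median centring, loess correction and repeated quantile normalization. The deposited levels were already normalized by RMA, with array medians of 6.94 or 6.95, so these settings could shift the differences only slightly. They are therefore a weak check. The mean over probe sets could not change the differences, because each of the 10 genes has exactly 1 probe set. Both dim filters kept these genes, but a filter only keeps or drops a gene, by its brighter array, and cannot change its difference. PTGS2 ranged between -2.85 and -2.79 with irinotecan and between -2.70 and -2.64 without it, HPGD between -1.79 and -1.74 and between -1.98 and -1.90, and PLA2G4A between 2.10 and 2.11 and between 1.33 and 1.37. Of the 30 differences of the 10 genes, the 3 of PTGER3 changed sign, and lay between -0.04 and 0.03. At 3-fold, 3 of the 10 genes were called with irinotecan and 2 without it, since PLA2G4A was no longer past the threshold there. At 1.5-fold, PLA2G4A was the 1 gene called between LoVo-R8 with and LoVo-R8 without irinotecan. Over all genes, 1.5-fold gave 2390 calls with irinotecan against parental LoVo, 2432 without it and 727 with against without irinotecan, and 3-fold gave 288, 269 and 14, against 839, 814 and 118 at 2-fold. A dim filter at the 25th percentile left 8 of the 10 genes with irinotecan against parental LoVo and 9 in the other comparisons, and the filter at the median left 6. For the other list genes named by the rule of the processing section, alternatives chosen after seeing the data moved 3 values to the other side of 2-fold. List genes named beyond that rule were not run under these alternatives. Without irinotecan, ABCC4 was at -0.96 under loess and -0.93 under repeated quantile normalization, and RBM3 at -0.93 and -0.92. MGST3 between the LoVo-R8 arrays was at 0.997 and 0.994. No paired analysis was possible because each group has 1 array. Levels below the first quartile, as for PTGER2 and PTGER3, limit what a difference can show.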

Other observations

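Of 10 measured genes induced through CREB and cAMP, the messenger raised by EP2 and EP4, 0 were 2-fold apart in any comparison. Over all genes, 4.56% were 2-fold from parental LoVo with irinotecan, 4.42% without it, and 0.641% differed so between the LoVo-R8 arrays. The clock gene PER1 had log2 differences from parental LoVo of 0.95 with irinotecan and 0.87 without it, and the phosphatase gene DUSP1 -0.58 and -0.48. The epiregulin gene EREG, named after its value was seen, was 0.77 lower with than without irinotecan. The list medians were -0.02 with irinotecan and 0.09 without it, against 0.00 over all genes.

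Of 17 regulators of PTGS2 transcription and mRNA, 2 were 2-fold lower and 0 were higher on both LoVo-R8 arrays, relative to parental LoVo, where 2.3% of all genes were lower with irinotecan and 2.78% without it. CELF2, which encodes an RNA-binding protein, had log2 levels of 6.02 in LoVo-R8 with irinotecan, 6.15 in LoVo-R8 without irinotecan and 7.77 in parental LoVo, with differences of -1.74 and -1.62. RBM3, another RNA-binding protein gene, had levels of 8.87, 8.93 and 9.94, with differences of -1.07 and -1.01, the second of which was within 2-fold under loess (-0.93). The other genes of the list were within 2-fold. The transcription factor genes among them were named after their values were seen. TCF7L2 had 0.96 and 0.69, JUN 0.88 and 0.42, ATF2 0.46 and 0.57, and CEBPB 0.09 and 0.78. RELA had 0.07 and 0.24, CREB1 0.02 and 0.02, and CEBPD -0.25 and 0.18. Lower on both arrays were NFKB1 (-0.51 and -0.41), USF2 (-0.52 and -0.44) and USF1 (-0.03 and -0.23). The list medians were 0.02 on both arrays.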
